A study of Homo sapiens with 32 samples.

Results

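Integrins and laminins are the receptors and the matrix proteins through which a cell holds on to its basement membrane, and 35 genes of these families, of 19023 in the deposited table, are described. The rule that picks members reads the gene symbol and no measured value, though the families themselves were chosen with earlier results of these data known. It gave 24 integrin subunit genes (ITGA with a number or letter, and ITGB) and 11 laminin chain genes (LAMA, LAMB and LAMC). The cells were RPE-1, an established human cell line derived from retinal pigment epithelium, labelled wild type. All cultures had first gone 18 h without serum and were then given serum for 5 h, 10 h or 15 h, while the 0 h cultures were collected at the end of starvation. Each time had 4 biological replicates of total RNA sequencing and 4 of ribosome footprint sequencing (Ribo-seq), which counts the mRNA fragments covered by translating ribosomes. The samples used here include no culture kept starved to 5 h, 10 h or 15 h, so the effect of serum cannot be told apart from that of time.

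An integrin is a pair of an alpha and a beta subunit that spans the plasma membrane. The alpha subunit largely sets what is bound (collagen, laminin, or fibronectin and other proteins with an Arg-Gly-Asp motif). The link to actin or, for ITGB4, to keratin filaments runs mainly through the tail of the beta subunit. A laminin is a trimer of an alpha, a beta and a gamma chain that polymerises into the basement membrane sheet. In the eye, the pigment epithelium rests on such a sheet in Bruch's membrane and binds it through integrins.

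Total counts ran from 595851 to 1107470 per RNA library and from 2851423 to 9901322 per footprint library, and the members made up 0.337% to 0.560% of RNA counts and 0.573% to 1.19% of footprint counts. The correlation of a library with the others of its group averaged 0.928 to 0.959 in RNA and 0.989 to 0.995 in footprints. Of 13 pigment epithelium markers in the table, 12 had counts, and their summed level of 1039 to 2195 CPM (counts scaled to library size) in RNA came mostly from KRT8 and KRT18. Some of the other markers were close to absent. Over all 16 libraries of each assay, TTR had 0 counts, TYR 2 counts in each assay, and RPE65 1 count in RNA and 7 in footprints. Values of the remaining markers are not given here. All 5 fibroblast markers had counts, and their summed RNA level was 265 to 404 CPM at 0 h, 127 to 190.1 CPM at 5 h, 94.1 to 151 CPM at 10 h and 126.5 to 142.5 CPM at 15 h, led by PDGFRB and THY1, while DCN and LUM were near 0. All 5 endothelial markers had counts, summing to 20.6 to 88.2 CPM in RNA, and 6 of 10 blood markers summed to 10.1 to 34.4 CPM, with CD3E, GP9, HBB and PF4 at 0 RNA counts. In footprints, 7 of 10 blood markers had counts and summed to 75.9 to 111.9 CPM. The endothelial markers summed to 6.68 to 34.7 CPM there. What part these levels have in any result here was not tested.

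Levels are given as CPM of the scaled library size, changes as log2 ratios ± SE against 0 h (relative to the rest of the transcriptome, since no spike-in was used), and each mean has its SD with n = 4. A gene was called when its p from the edgeR quasi-likelihood test was under 0.05 after Benjamini-Hochberg adjustment across the whole table. In RNA, 21 members had enough counts to be tested, and in footprints 25. In bulk cultures, fewer cells expressing a gene and less RNA in each cell cannot be told apart.

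The members moved in both directions, with falls outnumbering rises in footprints at 5, 10 and 15 h and, in RNA, narrowly at 10 h and more at 15 h. In RNA, 5 rose and 5 fell of 21 at 5 h, where 19.2% of all genes rose and 16.7% fell. At 10 h, 6 rose and 7 fell (23.3% and 21.5% of all genes), and at 15 h 2 rose and 9 fell (25.4% of all genes each way). In footprints, 6 rose and 12 fell of 25 at 5 h (35.2% and 40.5% of all genes), 7 rose and 10 fell at 10 h (39.4% and 39%), and 4 rose and 13 fell at 15 h (40.1% and 39.6%). The members' median change in RNA was -0.34, -0.42 and -0.66 at 5, 10 and 15 h, beside -0.03, -0.03 and -0.04 over all genes tested. In footprints it was -0.20, -0.09 and -0.30, beside -0.07, -0.02 and -0.01. The RNA count at 10 h rested on single libraries. Of the 13 calls in all, 8 were kept without RNA 0 h replicate 2 or 4, and 7 without RNA 10 h replicate 4, not counting calls gained.

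**Figure D1:**
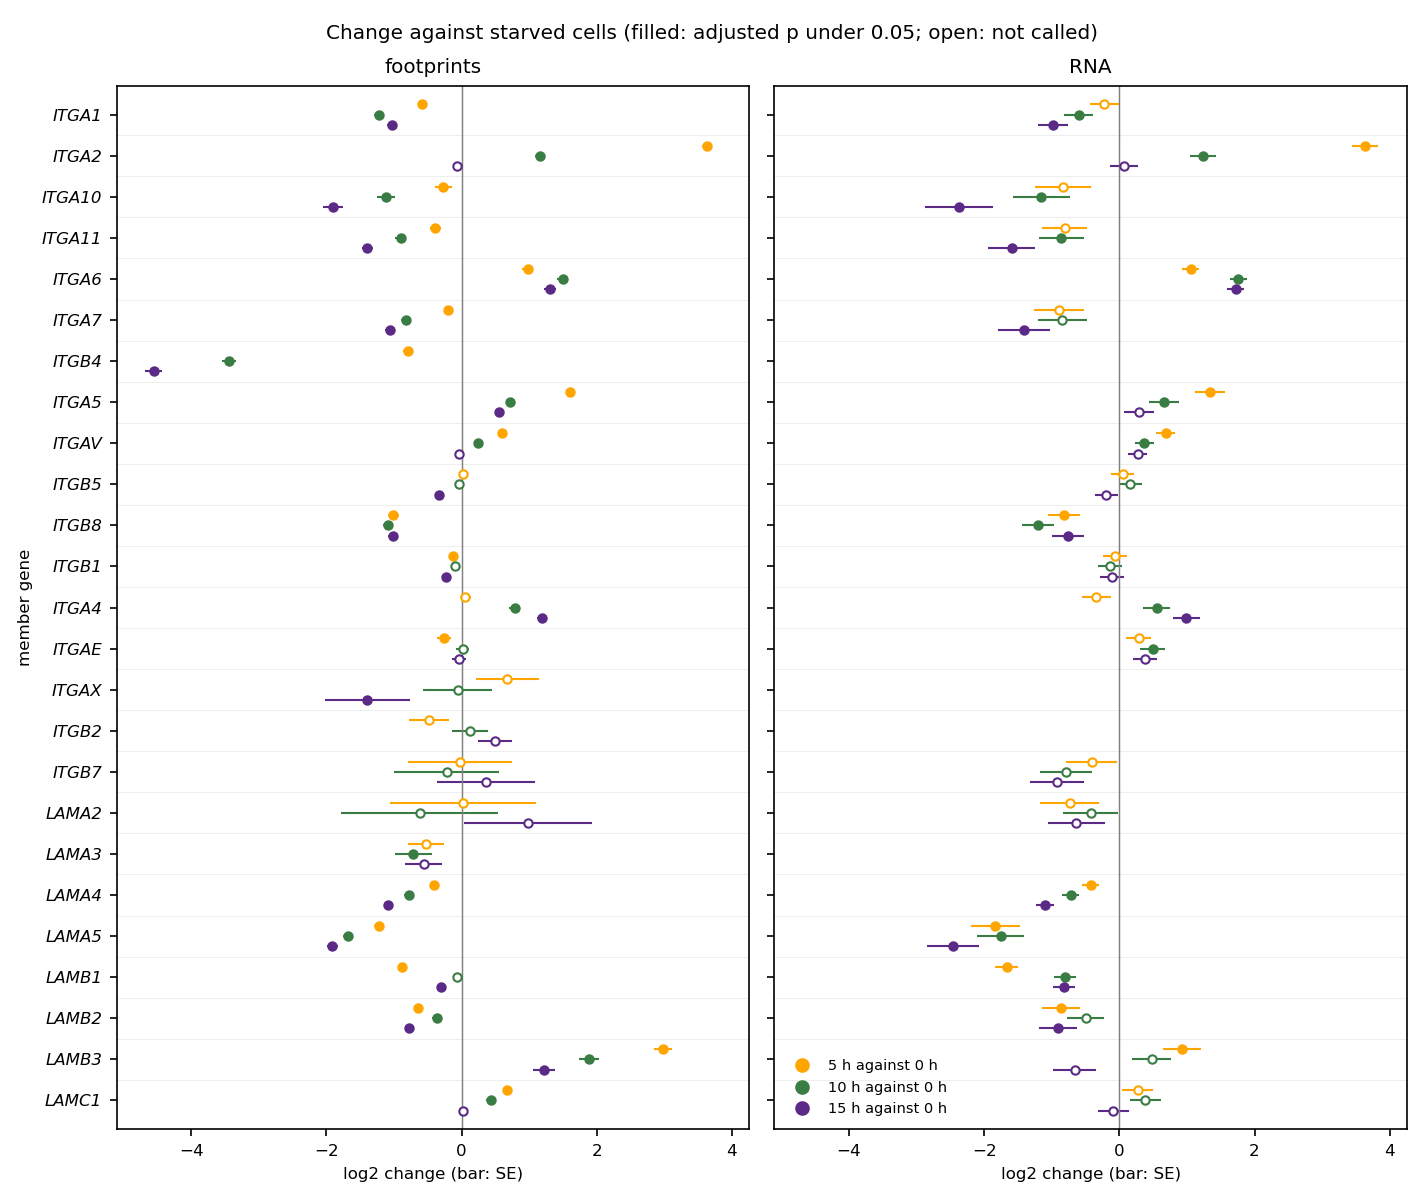
Log2 change against 0 h of each tested member in RNA and in footprints, with SE bars; colours give 5, 10 and 15 h, and filled points were called. ITGA2 stands far to the right at 5 h in both assays, at 3.63 in footprints, and back near 0 at 15 h, whereas ITGB4 moves stepwise to the left in footprints, to -4.56 at 15 h.

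Among the collagen receptors, ITGA2, the alpha subunit of the main epithelial receptor for fibrillar collagen, made the largest integrin rise at 5 h in both assays. Its gene lies on chromosome 5. The 250 bases before its start in the RefSeq promoter table (GRCh38.p14, chr5:52989102-52989351, plus strand) are shown because its footprints rose most of all members; they are 76.4% G and C and hold 4 copies of the GC box GGGCGG, in capitals.
ITGA2 promoter: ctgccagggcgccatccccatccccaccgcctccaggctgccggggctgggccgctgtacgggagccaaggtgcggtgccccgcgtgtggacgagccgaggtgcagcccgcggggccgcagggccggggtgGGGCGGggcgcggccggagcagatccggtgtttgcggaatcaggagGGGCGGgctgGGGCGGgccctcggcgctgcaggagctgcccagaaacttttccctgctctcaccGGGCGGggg
A GC box on either strand was in 45.0% of the 35116 promoter windows of 300 bases in that table and in 14 of the 25 members that had a window.

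ITGA2 footprints were 208, 239, 226 and 209 CPM at 0 h, 2567, 3002, 2781 and 2572 CPM at 5 h, 561, 419, 476 and 522 CPM at 10 h, and 207, 217, 219.8 and 202 CPM at 15 h. ITGA2 RNA was 60.9, 81.3, 36.9 and 63.2 CPM at 0 h, 654, 755, 828 and 819.5 CPM at 5 h, 138, 106, 171 and 165 CPM at 10 h, and 75.9, 59.2, 61.4 and 61.9 CPM at 15 h. Every 5 h library lay above every library of the other 3 times in both assays, and the 15 h libraries overlapped those of 0 h. The change at 5 h was 3.63 ± 0.07 in footprints (12.4-fold, adjusted p = 2.33e-29, edgeR) and 3.63 ± 0.20 in RNA (12.4-fold, adjusted p = 3.58e-12). At 10 h it was 1.16 ± 0.07 in footprints and 1.23 ± 0.19 in RNA, both called. By 15 h neither was called, at -0.06 ± 0.07 and 0.07 ± 0.20.

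The other 3 collagen receptor subunits fell. ITGA11, a receptor for interstitial collagen best known in fibroblasts, had footprints of 837, 819, 885 and 649.8 CPM at 0 h, 565, 697, 577 and 601 CPM at 5 h, 440.2, 439.6, 392 and 439.9 CPM at 10 h, and 311, 299, 323 and 277 CPM at 15 h. ITGA11 RNA was 59.7, 91.8, 153 and 63.2 CPM at 0 h, 54.5, 68.3, 44.2 and 42.8 CPM at 5 h, 36.5, 76.1, 47.8 and 41.9 CPM at 10 h, and 16.6, 53.7, 30.7 and 19.6 CPM at 15 h. Footprints at 10 and 15 h lay wholly below those at 0 h, and among the RNA libraries at 0 h replicate 3 was far the highest. ITGA11 footprints changed by -0.39 ± 0.08, -0.90 ± 0.08 and -1.4 ± 0.08 (adjusted p = 1.52e-13 at 15 h, edgeR). The summed fibroblast markers were lower with serum in footprints too, at 854 to 926 CPM at 0 h, 349 to 386 CPM at 5 h, 276 to 309.5 CPM at 10 h and 326 to 344.5 CPM at 15 h, and their part in the result was not tested. In RNA the 15 h change of -1.59 ± 0.35 was called (adjusted p = 0.000839), as was -0.86 ± 0.33 at 10 h. The 10 h RNA call ended without any of RNA 0 h replicates 2 and 3 and RNA 10 h replicates 1, 3 and 4 (adjusted p 0.0706 to 0.254). The 5 h change (-0.81 ± 0.33, not called) was called without RNA 0 h replicate 1 or 4 or RNA 5 h replicate 2 (adjusted p 0.0296 to 0.0377). DESeq2 called that change too (adjusted p = 0.0462).

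ITGA1, a receptor for collagen of basement membranes, had footprints of 87.4, 89.5, 90.0 and 85.8 CPM at 0 h, 60.1, 69.8, 53.5 and 53.8 CPM at 5 h, 40.6, 38, 37.7 and 34.9 CPM at 10 h, and 46.4, 41.2, 44.1 and 42.4 CPM at 15 h. ITGA1 RNA was 41.8, 39.6, 39.7 and 45.6 CPM at 0 h, 34.1, 36.6, 32.6 and 39.6 CPM at 5 h, 26.4, 33.3, 24.7 and 25 CPM at 10 h, and 18.7, 14.8, 20.5 and 31 CPM at 15 h. All footprint libraries given serum lay below all 0 h libraries, with the lowest values at 10 h. The footprint changes were -0.58 ± 0.07, -1.22 ± 0.07 and -1.03 ± 0.07, all called. RNA was not called at 5 h (-0.22 ± 0.21), and was called lower at 10 h (-0.60 ± 0.21) and 15 h (-0.98 ± 0.22, adjusted p = 0.000796, edgeR). The 10 h RNA call ended without any of RNA 0 h replicates 3 and 4 and RNA 10 h replicates 1, 3 and 4 (adjusted p 0.0518 to 0.0774). ITGA1 overlaps PELO, so reads of the pair may be shared, and whether the counting used strand is not stated in the labels.

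ITGA10, a collagen receptor known mainly from cartilage, was the least abundant of the 4 per length. Its footprints were 22.2, 22.5, 24 and 19.5 CPM at 0 h, 14.2, 23, 17.2 and 19.1 CPM at 5 h, 11.2, 11.4, 8.86 and 8.94 CPM at 10 h, and 7.36, 4.71, 6.97 and 5.12 CPM at 15 h. Its RNA was 10.7, 17.7, 12.8 and 14.7 CPM at 0 h, 3.41, 9.9, 6.98 and 9.63 CPM at 5 h, 3.04, 12.4, 4.63 and 4.46 CPM at 10 h, and 1.04, 4.63, 3.83 and 1.03 CPM at 15 h, from 45, 27, 24 and 10 counts over the libraries of 0, 5, 10 and 15 h. From 10 h on, its footprint libraries lay below all those of 0 h. In RNA the groups of 5 h and 15 h lay below that of 0 h, and the 10 h group overlapped it. The 5 h RNA change was not called, but was with the replicate number as a block (-0.88, adjusted p = 0.0472, edgeR). At 15 h the change was -1.9 ± 0.15 in footprints and -2.37 ± 0.50 in RNA (adjusted p = 2.05e-14 and 0.000403, edgeR). The smaller calls depended on single libraries. The 10 h RNA fall (-1.16 ± 0.42) was lost without any of RNA 0 h replicates 2 and 4 and RNA 10 h replicates 1, 3 and 4 (adjusted p 0.0513 to 0.113). The 5 h footprint fall (-0.27 ± 0.12) was lost without any of footprint 0 h replicates 1, 2 and 3 and 5 h replicates 1, 3 and 4 (adjusted p 0.0508 to 0.221).

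**Figure D2:**
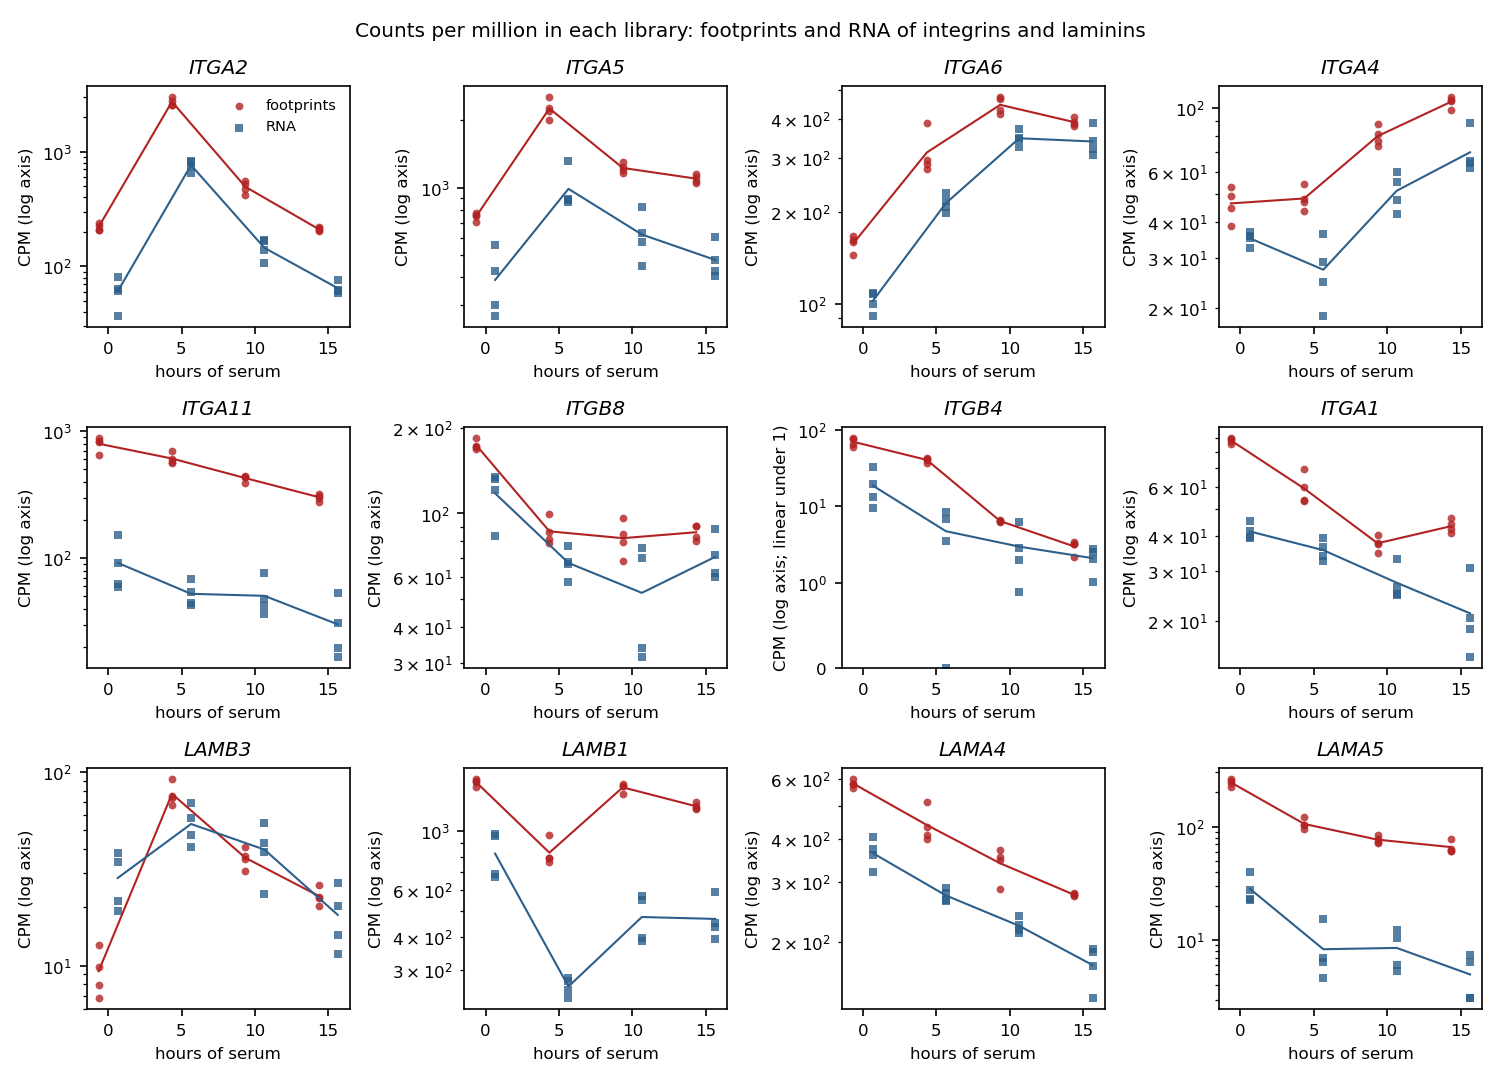
CPM in each library against hours of serum for 12 members, footprints as circles and RNA as squares, on log axes that are linear under 1 CPM where a library had 0; lines join group means. ITGA2 peaks at 5 h between 2567 and 3002 CPM in footprints, ITGA6 and ITGA4 climb later, and ITGA11, ITGA1, ITGB4, LAMA4 and LAMA5 are lower at 15 h than at 0 h.

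The laminin receptors diverged. ITGA6, which binds laminin as a partner of ITGB1 or, in hemidesmosomes, of ITGB4, had footprints of 144, 166, 159 and 161 CPM at 0 h, 275, 390.2, 295 and 286 CPM at 5 h, 416, 473, 429 and 465 CPM at 10 h, and 392, 388, 380.4 and 408 CPM at 15 h. ITGA6 RNA was 109, 100.1, 108 and 91.2 CPM at 0 h, 230.1, 198, 216 and 208 CPM at 5 h, 347, 344, 324 and 373 CPM at 10 h, and 306, 339.6, 321 and 388 CPM at 15 h. Every library given serum lay above every 0 h library in both assays. ITGA6 rose by 0.98 ± 0.08, 1.5 ± 0.08 and 1.31 ± 0.08 in footprints at 5, 10 and 15 h, and by 1.05 ± 0.13, 1.76 ± 0.13 and 1.72 ± 0.13 in RNA, all called (adjusted p = 1.37e-14 and 3.07e-10 at 10 h, edgeR). The RNA libraries of 10 and 15 h overlapped, and the step between them was not called (-0.04 ± 0.12).

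ITGB4, the subunit that anchors hemidesmosomes to keratin, fell most of all members. ITGB4 footprints were 65.9, 76.6, 77.1 and 59.5 CPM at 0 h, 40.1, 41.4, 43.2 and 37.4 CPM at 5 h, 6.44, 6.32, 6.37 and 6.62 CPM at 10 h, and 3.45, 2.19, 3.21 and 3.25 CPM at 15 h. The 4 groups did not overlap, each later time lying below the one before. Relative to 0 h the changes were -0.79 ± 0.08, -3.44 ± 0.10 and -4.56 ± 0.12 (23.5-fold lower at 15 h, adjusted p = 2.95e-30, edgeR). Its RNA was too low to test, with 59, 18, 10 and 8 counts over the libraries of 0, 5, 10 and 15 h, and averaged 18.8 ± 10.1 CPM at 0 h, 4.75 ± 3.8 CPM at 5 h, 2.99 ± 2.27 CPM at 10 h and 2.11 ± 0.772 CPM at 15 h, again with no overlap between the 0 h libraries and any later group. So its partner ITGA6 gained footprints while ITGB4 lost them. GALK1 overlaps ITGB4.

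ITGA7, the laminin receptor subunit of muscle, declined. Footprints of ITGA7 were 271, 307, 300.1 and 284 CPM at 0 h, 229.7, 295, 237 and 254 CPM at 5 h, 156, 174, 147 and 183 CPM at 10 h, and 145, 145, 139.5 and 130.3 CPM at 15 h. RNA of ITGA7 was 45.4, 88.6, 128 and 51.5 CPM at 0 h, 30.7, 66.3, 24.4 and 43.9 CPM at 5 h, 21.3, 76.1, 40.1 and 36.6 CPM at 10 h, and 27, 37.9, 30.7 and 21.7 CPM at 15 h. The footprint groups of 10 and 15 h lay below that of 0 h, and in RNA the 0 h libraries ranged widely, replicates 2 and 3 being high. Footprint changes were -0.20 ± 0.07, -0.82 ± 0.07 and -1.06 ± 0.07, all called, and the RNA change was called at 15 h (-1.42 ± 0.39, adjusted p = 0.0048, edgeR) but not at 5 h (-0.89 ± 0.37) or 10 h (-0.84 ± 0.37). Without RNA 0 h replicate 1 or 4, or without replicate 2 of the later group, the 5 h and 10 h RNA changes of ITGA7 were called as well (adjusted p 0.0158 to 0.0326 at 5 h and 0.0102 to 0.043 at 10 h). DESeq2 called the 5 h one with every library (adjusted p = 0.0406). ITGA7 overlaps BLOC1S1 and TMT1B.

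Of the receptors for fibronectin and other Arg-Gly-Asp proteins, ITGA5 and ITGAV rose at 5 h, ITGB8 fell, and ITGB5 was not called at 5 h. ITGA5, which pairs with ITGB1 as the classical fibronectin receptor, had footprints of 702, 756, 745 and 774 CPM at 0 h, 2019, 2547, 2211 and 2275 CPM at 5 h, 1204, 1235, 1167 and 1305 CPM at 10 h, and 1157, 1054, 1113 and 1075 CPM at 15 h. ITGA5 RNA was 299.7, 427, 559 and 268 CPM at 0 h, 881, 1321, 866 and 893 CPM at 5 h, 448, 825, 628 and 576 CPM at 10 h, and 404, 604, 476 and 424 CPM at 15 h. All 5 h libraries exceeded all 0 h libraries in both assays, and RNA replicate 2 was the highest at 5, 10 and 15 h. ITGA5 rose by 1.6 ± 0.06 in footprints (3.04-fold, adjusted p = 2.47e-25, edgeR) and 1.35 ± 0.22 in RNA (adjusted p = 8.25e-05). It stayed higher at 10 h (0.72 ± 0.06 and 0.67 ± 0.22) and, in footprints, at 15 h (0.56 ± 0.06); the 15 h RNA value of 0.29 ± 0.22 was not called. The 10 h RNA call was lost without RNA 0 h replicate 1 or 4 (adjusted p 0.0559 to 0.0658), and the 15 h one was gained without RNA 0 h replicate 3 (0.61, adjusted p = 0.024).

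ITGAV, the alpha subunit shared by the vitronectin and TGF-beta-activating integrins, was among the most abundant per length of the alpha subunits analysed, with footprint means of 937 ± 54.6 CPM at 0 h, 1419 ± 132 CPM at 5 h, 1106 ± 28 CPM at 10 h and 914 ± 18.6 CPM at 15 h. It rose at 5 h by 0.60 ± 0.06 in footprints and 0.69 ± 0.14 in RNA and at 10 h by 0.24 ± 0.06 and 0.37 ± 0.14, and was not called at 15 h (-0.04 ± 0.06 and 0.27 ± 0.14). The 10 h RNA call was lost without any of RNA 0 h replicates 1, 2 and 3 and RNA 10 h replicate 4 (adjusted p 0.0508 to 0.199). The 15 h one was gained without RNA 15 h replicate 2 (adjusted p = 0.0252). Its partner ITGB5, a vitronectin receptor subunit, held footprint means of 407 ± 16.5 CPM at 0 h, 413 ± 36.7 CPM at 5 h, 395 ± 11.2 CPM at 10 h and 325 ± 3.47 CPM at 15 h, and its 15 h footprints alone were called (-0.33 ± 0.05). RNA of ITGB5 was called at no time, with changes of 0.05 ± 0.17, 0.16 ± 0.17 and -0.19 ± 0.17.

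ITGB8, which with ITGAV frees TGF-beta from its latent complex, had footprints of 169, 170.4, 172 and 184 CPM at 0 h, 78.5, 86.4, 81.7 and 99.8 CPM at 5 h, 84.4, 96.1, 68 and 79.3 CPM at 10 h, and 80.0, 90.6, 90.4 and 82.8 CPM at 15 h. ITGB8 RNA was 121, 132, 83.7 and 134 CPM at 0 h, 66.5, 57.4, 67.5 and 77 CPM at 5 h, 69.9, 31.4, 75.6 and 33.9 CPM at 10 h, and 71.8, 62, 88.2 and 59.9 CPM at 15 h. The footprint libraries given serum all lay below those of 0 h and overlapped each other. ITGB8 fell at each time, with changes of -1.01 ± 0.08, -1.09 ± 0.08 and -1.01 ± 0.08 in footprints (adjusted p = 5.92e-13 at 10 h, edgeR) and -0.82 ± 0.24, -1.2 ± 0.24 and -0.76 ± 0.23 in RNA, all called. The 15 h RNA call ended without RNA 15 h replicate 2 or 4 (adjusted p 0.0547 to 0.0711). The platelet receptor subunits ITGA2B and ITGB3, and ITGA8, a receptor for nephronectin, were too low to test. ITGB3 had 0, 11, 1 and 2 footprint counts over the libraries of 0, 5, 10 and 15 h, ITGA2B had 2, 4, 3 and 2, and ITGA8 had 0 in all 16 footprint libraries, where a count of 0 allows up to 3.

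ITGB1, the beta subunit that most of these alpha subunits share, made only small changes in footprints. Its footprint means were 189 ± 11.6 CPM at 0 h, 174 ± 7.67 CPM at 5 h, 178 ± 11.6 CPM at 10 h and 161 ± 5.27 CPM at 15 h, with changes of -0.12 ± 0.06 (called), -0.09 ± 0.06 (not called) and -0.24 ± 0.06 (adjusted p = 2e-04, edgeR). The 5 h call ended without any of footprint 0 h replicates 2 and 4 and footprint 5 h replicates 1, 3 and 4 (adjusted p 0.0615 to 0.236). ITGB1 RNA was not called at any time (-0.07 ± 0.18, -0.14 ± 0.18 and -0.10 ± 0.18). The table counts ITGB1 over only 317 bases, so its level per length is not compared with the others.

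ITGA4, a receptor for VCAM1 and fibronectin, rose late. ITGA4 footprints were 49.3, 44.8, 53.1 and 38.6 CPM at 0 h, 48.2, 54.4, 47.2 and 43.6 CPM at 5 h, 81, 87.7, 73.7 and 77 CPM at 10 h, and 98.4, 109, 106 and 107 CPM at 15 h. ITGA4 RNA was 35.8, 32.3, 36.9 and 35.3 CPM at 0 h, 18.7, 24.8, 29.1 and 36.4 CPM at 5 h, 59.8, 42.8, 47.8 and 55.3 CPM at 10 h, and 64.5, 62, 65.2 and 88.8 CPM at 15 h. The 5 h libraries overlapped those of 0 h, and the 10 h and 15 h libraries lay above both. ITGA4 footprints were not called at 5 h (0.06 ± 0.08) and rose by 0.79 ± 0.08 at 10 h and 1.19 ± 0.08 at 15 h (adjusted p = 5.13e-17, edgeR). In RNA the values were -0.34 ± 0.22, 0.55 ± 0.20 and 0.99 ± 0.20, of which the last 2 were called. The 10 h RNA call was lost without any of RNA 0 h replicates 2 and 4 and RNA 10 h replicates 1 and 4 (adjusted p 0.0512 to 0.0788). ITGA4 overlaps CERKL. ITGA9, which binds tenascin C, had 1, 5, 2 and 0 footprint counts over the libraries of 0, 5, 10 and 15 h and was not tested.

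Integrins of leukocytes were nearly all at the limit of detection. ITGAE and ITGB7, which pair to bind E-cadherin on epithelia, were the exceptions in RNA. ITGAE averaged 91.7 ± 12.5 CPM at 0 h, 113 ± 14.2 CPM at 5 h, 129.9 ± 12.1 CPM at 10 h and 120.1 ± 32.5 CPM at 15 h in RNA and 21.4 ± 2.58 CPM at 0 h, 17.7 ± 1.94 CPM at 5 h, 21.3 ± 1.29 CPM at 10 h and 20.6 ± 1.47 CPM at 15 h in footprints. Its RNA was called at 10 h alone (0.49 ± 0.18) and its footprints at 5 h alone (-0.26 ± 0.10). The first call was lost without any of RNA 0 h replicates 2 and 4 and RNA 10 h replicates 3 and 4 (adjusted p 0.0571 to 0.103). The second was lost without any of footprint 0 h replicates 1 and 2 and footprint 5 h replicate 4 (adjusted p 0.0933 to 0.139). ITGB7 averaged 14.2 to 26.3 CPM in RNA and 1.46 to 2.5 CPM in footprints at the 4 times, with no call against 0 h. ITGB7 RNA was called lower at 10 h without RNA 10 h replicate 2 (adjusted p = 0.0473) and at 15 h without RNA 0 h replicate 4 (adjusted p = 0.0396), and its 15 h footprints higher without footprint 0 h replicate 1 (adjusted p = 0.0118). ITGAE RNA at 15 h (0.38 ± 0.18) was called without RNA 0 h replicate 1 or 3 or RNA 15 h replicate 2 (adjusted p 0.00228 to 0.0469). ITGAE overlaps HASPIN and P2RX5, and ITGB7 overlaps ZNF740. Of the ITGB2 group, which lets leukocytes adhere and ingest, ITGB2 averaged 1.96 to 4.04 CPM and ITGAX 0.301 to 1.45 CPM in footprints. ITGAX was called lower at 15 h (-1.39 ± 0.63, from 10 counts at 15 h and 18 at 0 h), a call lost without any of footprint 0 h replicates 3 and 4 and footprint 15 h replicates 1, 2 and 3 (adjusted p 0.0602 to 0.169). ITGB2 footprints at 15 h (0.49 ± 0.26, not called) were called without footprint 0 h replicate 1 or 15 h replicate 3 (adjusted p 0.0153 to 0.0269). Footprint counts over the libraries of 0, 5, 10 and 15 h were 17, 23, 14 and 19 for ITGAL, 12, 11, 14 and 23 for ITGAM and 2, 1, 0 and 2 for ITGAD, which were not tested.

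Turning to the ligands, the laminin alpha chains fell where they could be called. LAMA4, the alpha chain of vessel and mesenchymal basement membranes, was the most abundant per length, with footprints of 566, 583, 602 and 580.2 CPM at 0 h, 401, 516, 411 and 434 CPM at 5 h, 354, 372, 287 and 348 CPM at 10 h, and 274, 278, 277 and 274 CPM at 15 h. LAMA4 RNA was 374, 359.8, 406 and 321 CPM at 0 h, 278, 265, 264 and 288 CPM at 5 h, 213, 217, 224 and 238 CPM at 10 h, and 186, 191, 137 and 170.3 CPM at 15 h. In both assays all libraries given serum lay below all 0 h libraries. LAMA4 fell, with changes of -0.41 ± 0.07, -0.78 ± 0.07 and -1.08 ± 0.07 in footprints and -0.42 ± 0.12, -0.72 ± 0.12 and -1.1 ± 0.13 in RNA, all called (adjusted p = 1.25e-15 and 2.98e-07 at 15 h, edgeR). With no filter on low counts the 5 h RNA change of LAMA4 was not called (-0.40, adjusted p = 0.0536).

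LAMA5, the widespread alpha chain of epithelial basement membranes, had footprints of 241, 254, 221 and 262 CPM at 0 h, 103, 122, 102 and 94.2 CPM at 5 h, 77, 73.7, 71.3 and 84.8 CPM at 10 h, and 78.4, 60.9, 63.5 and 61.1 CPM at 15 h. LAMA5 RNA was 22.7, 22.9, 39.7 and 27.9 CPM at 0 h, 15.3, 6.93, 4.65 and 6.42 CPM at 5 h, 6.08, 10.5, 12.3 and 5.35 CPM at 10 h, and 3.12, 7.4, 6.39 and 3.1 CPM at 15 h, from 88, 26, 31 and 19 counts over the libraries of 0, 5, 10 and 15 h. The 0 h libraries were the highest in both assays with no overlap. LAMA5 fell, with changes of -1.22 ± 0.07, -1.68 ± 0.07 and -1.91 ± 0.08 in footprints and -1.83 ± 0.36, -1.76 ± 0.35 and -2.46 ± 0.38 in RNA (adjusted p = 8.74e-20 and 1.21e-05 at 15 h, edgeR).

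LAMA3, the alpha chain of the epithelial laminin that also contains LAMB3, was low, at 3.47 ± 1.08 CPM at 0 h, 2.35 ± 0.507 CPM at 5 h, 2.01 ± 0.586 CPM at 10 h and 2.22 ± 0.687 CPM at 15 h in footprints. It was called lower at 10 h (-0.72 ± 0.27), a call lost without footprint 0 h replicate 1 or footprint 10 h replicate 3 (adjusted p 0.0661 to 0.0818), and not at 5 h (-0.53 ± 0.27) or 15 h (-0.56 ± 0.27). The 5 h change was called without footprint 5 h replicate 2 (adjusted p = 0.0415), and the 15 h change without any of footprint 0 h replicates 2 and 3 and footprint 15 h replicate 3 (adjusted p 0.00921 to 0.0425). LAMA2, the muscle chain, had no call, with changes in RNA of -0.74 ± 0.43, -0.42 ± 0.41 and -0.64 ± 0.42. LAMA1, the chain of the early embryo, had 19, 12, 5 and 10 footprint counts and 3, 45, 0 and 2 RNA counts over the libraries of 0, 5, 10 and 15 h, with 44 of the RNA counts in the 5 h replicate 2.

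The laminin beta chains moved apart. LAMB1, the beta chain of most laminins of growing tissue, had footprints of 1464, 1569.8, 1546 and 1532 CPM at 0 h, 762, 967, 791 and 794 CPM at 5 h, 1479.9, 1501, 1378 and 1480.3 CPM at 10 h, and 1281, 1239, 1222 and 1214 CPM at 15 h. LAMB1 RNA was 687, 954, 974 and 673 CPM at 0 h, 252, 280.3, 235 and 272 CPM at 5 h, 396, 569, 384 and 549 CPM at 10 h, and 391, 589, 435 and 452 CPM at 15 h. Both assays were lowest at 5 h, where no library overlapped any other time. At 5 h the RNA fell by 3.17-fold (-1.67 ± 0.17, adjusted p = 8.47e-08, edgeR) and the footprints by 1.85-fold (-0.88 ± 0.06, adjusted p = 4.16e-17). At 10 h the RNA was still lower (-0.80 ± 0.16) while the footprints were not called (-0.07 ± 0.06), and at 15 h they were -0.82 ± 0.16 and -0.30 ± 0.06, both called.

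LAMB2, the beta chain of muscle, nerve and kidney laminins, averaged 303 ± 10.4 CPM at 0 h, 194 ± 25.9 CPM at 5 h, 234 ± 6.27 CPM at 10 h and 177 ± 15 CPM at 15 h in footprints. Its footprints were called lower at all 3 times (-0.64 ± 0.07, -0.37 ± 0.07 and -0.78 ± 0.07). LAMB2 RNA ran 225, 136, 155 and 131 CPM at 5 h against 184, 311, 431 and 235 CPM at 0 h, so the groups overlapped. It was called lower at 5 h (-0.86 ± 0.28) and 15 h (-0.91 ± 0.28), and both calls depended on single libraries. The 5 h call ended without RNA 0 h replicate 3 or RNA 5 h replicate 3 or 4 (adjusted p 0.0579 to 0.11). The 15 h call ended without RNA 0 h replicate 3 or RNA 15 h replicate 1 or 4 (adjusted p 0.061 to 0.102).

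LAMB3, the beta chain of the epithelial laminin of hemidesmosomes, rose most of the laminins described. LAMB3 footprints were 7.98, 6.79, 9.81 and 12.8 CPM at 0 h, 67.6, 92, 73.4 and 75.2 CPM at 5 h, 30.8, 35.4, 36.8 and 41.1 CPM at 10 h, and 26.2, 20.4, 22.7 and 22.4 CPM at 15 h. LAMB3 RNA was 21.5, 34.4, 38.3 and 19.1 CPM at 0 h, 40.9, 69.3, 58.2 and 47.1 CPM at 5 h, 23.3, 54.2, 38.6 and 42.8 CPM at 10 h, and 11.4, 20.4, 26.8 and 14.5 CPM at 15 h. In footprints every library given serum lay above every 0 h library, the 5 h group highest, while the RNA groups of 10 and 15 h overlapped that of 0 h. LAMB3 footprints rose by 2.98 ± 0.14 at 5 h (7.91-fold, adjusted p = 1.14e-16, edgeR), 1.89 ± 0.15 at 10 h and 1.22 ± 0.16 at 15 h. In RNA the 5 h change was 0.93 ± 0.28 (adjusted p = 0.014), and those of 10 h (0.48 ± 0.29) and 15 h (-0.66 ± 0.32) were not called. The 5 h RNA call was lost without RNA 0 h replicate 1 or 4 or RNA 5 h replicate 2 (adjusted p 0.0608 to 0.0672). Without RNA 10 h replicate 1 the 10 h change was called higher (0.73, adjusted p = 0.0399), and without RNA 15 h replicate 3 that of 15 h was called lower (-0.84, adjusted p = 0.0454).

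LAMC1, the gamma chain of most laminins, rose in footprints at 5 h and 10 h and was not called at 15 h. Its footprint means were 656 ± 44.7 CPM at 0 h, 1046 ± 130.0 CPM at 5 h, 886 ± 29.8 CPM at 10 h and 669.9 ± 21.4 CPM at 15 h, with changes of 0.67 ± 0.06 and 0.43 ± 0.06 (both called) and 0.03 ± 0.06 (not called). LAMC1 RNA was not called at any time (0.27 ± 0.23, 0.38 ± 0.23 and -0.09 ± 0.23), but was at 10 h without RNA 0 h replicate 3 (0.70, adjusted p = 0.0136). LAMC3 had 2, 1, 2 and 2 footprint counts over the libraries of 0, 5, 10 and 15 h and LAMB4 had 31, 9, 10 and 4, and neither was tested.

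AP-1, the pair of FOS and JUN factors, is made soon after serum is added, and the 300-base promoter windows of the members (250 bases before the start and 50 after) were searched on both strands for its motif TGANTCA. It was found in 3 of the 25 members with a RefSeq window, ITGA5, LAMA3 and LAMB3, and in 7.71% of all 35116 windows. For each motif a member counts if any of its windows matched, while the share over all genes is per window, so member counts run higher. The 4 stretches of 30 bases are shown because they are all the matches found, with the motif in capitals, read on the strand of the gene (GRCh38.p14).
ITGA5 chr12:54419255-54419284 minus strand: tcctccccgcgtTGAGTCAttcgcctctgg
LAMA3 chr18:23872883-23872912 plus strand: tctggcacaggcTGACTCAtgtgtgaagtt
LAMA3 chr18:23872939-23872968 plus strand: gccttcctcaccTGAGTCAggcaggcccgg
LAMB3 chr1:209651424-209651453 minus strand: cgtcagccactcTGACTCAttcactttggg
The motif of ITGA5 begins 6 bases before the annotated start, those of LAMA3 begin 125 and 69 bases before a start inside the gene, and that of LAMB3 begins 67 bases before the third of its listed starts. Of these genes ITGA5 and LAMB3 were called higher at 5 h, while LAMA3 was not called in footprints and was too low to test in RNA. ITGA2, with the largest footprint rise, had no match in its window. Any part of AP-1 in these changes was not tested. The TEAD motif GGAATG was in 4 members (14% of all windows), and the CArG box of SRF in 0 (1.29%). Motifs were picked with the values known, and a match is no evidence of binding.

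Translational efficiency, the footprint change minus the RNA change, was tested for 21 members as the assay-by-time interaction. That fit gave a gene the same spread in both assays. Fitted apart, the common coefficient of variation between replicates was 0.185 in RNA and 0.0547 in footprints. The SE and adjusted p of efficiency may therefore be too small. At 5 h, 2 members were called higher and 0 lower (4.13% and 2.34% of all genes), both of them laminin beta chains. LAMB3 rose by 2.0 ± 0.33 (4.01-fold, adjusted p = 3.81e-05, edgeR), and LAMB1, whose RNA fell more than its footprints, by 0.74 ± 0.18 (adjusted p = 0.00643). LAMB3 had 0.330 as much footprint CPM as RNA CPM at 0 h, against a median of 0.805 over all 8736 genes, and 1.43 at 5 h, 0.907 at 10 h and 1.25 at 15 h.

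At 10 h, LAMB3 (1.31 ± 0.34) and LAMB1 (0.62 ± 0.17) were called higher and ITGA1 lower (-0.72 ± 0.20, adjusted p = 0.0193, edgeR), beside 5.44% of all genes called higher and 1.80% lower. None of the 3 calls was left without RNA 0 h replicate 2 (LAMB3 1.20 and LAMB1 0.56, adjusted p = 0.0511 and 0.0513, and ITGA1 -0.68, adjusted p = 0.0551). LAMB1's also ended without RNA 10 h replicate 3 or footprint 0 h replicate 1, 3 or 4 (adjusted p 0.0576 to 0.0726 over these), and ITGA1's without RNA 10 h replicate 2 (adjusted p up to 0.114).

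At 15 h, LAMB3 was higher (1.77 ± 0.38, adjusted p = 0.0011, edgeR) and ITGA6 lower (-0.55 ± 0.15, adjusted p = 0.0114), beside 7.03% and 3.94% of all genes. The ITGA6 call ended without RNA 15 h replicate 4 (-0.44, adjusted p = 0.0611), leaving 1 call. The count was 5 without RNA 15 h replicate 2, and 4 without any of RNA 0 h replicate 1, RNA 15 h replicate 3, footprint 0 h replicates 1, 3 and 4 and footprint 15 h replicate 1. The members gained were among ITGAE, ITGAV, ITGB7 and LAMB1. ITGA2, whose footprints rose most, had no called shift in efficiency at any time (-0.05 ± 0.19, -0.16 ± 0.20 and -0.26 ± 0.21). Nor did ITGA5 (0.21 ± 0.23, -0.05 ± 0.23 and 0.14 ± 0.24).

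**Figure D3:**
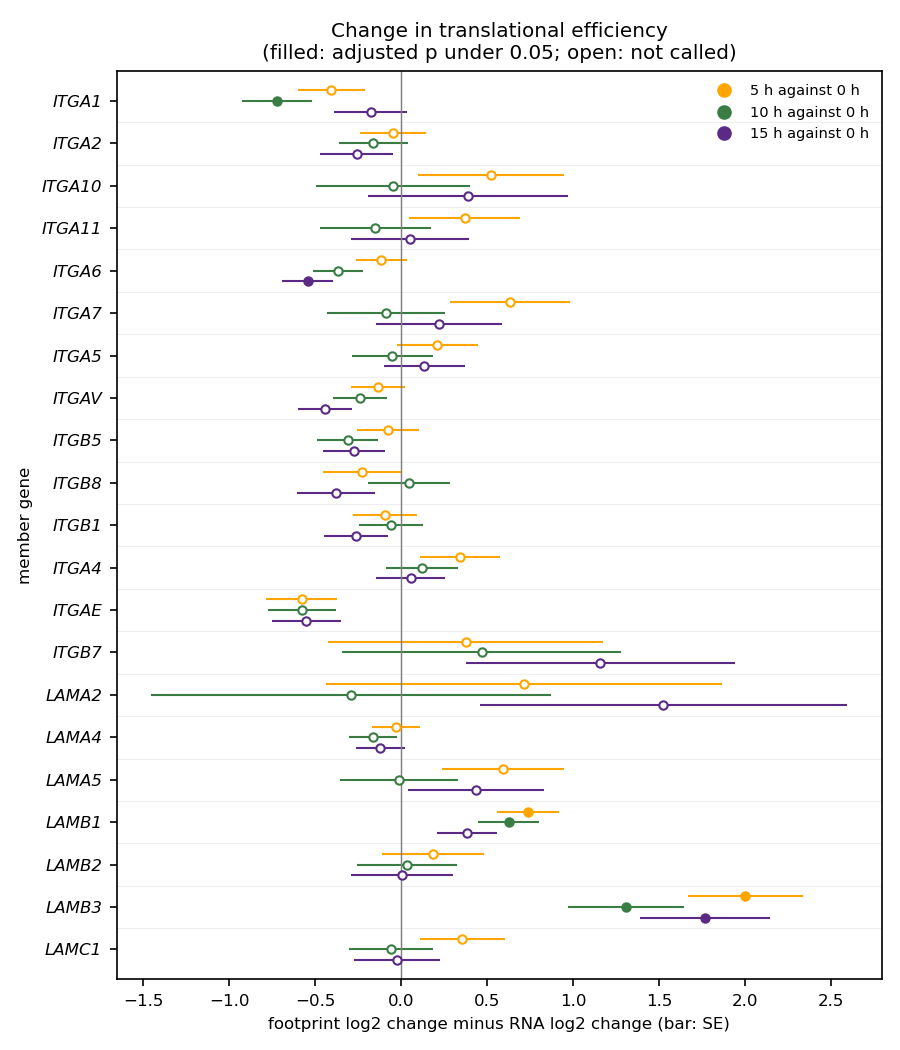
Change in translational efficiency against 0 h (footprint log2 change minus RNA log2 change) of the 21 members tested, with SE bars; filled points were called. LAMB3 lies to the right at all 3 times, at 2.0, 1.31 and 1.77, and LAMB1 is called at 5 and 10 h.

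Between genes, footprint CPM relative to RNA CPM spanned a wide range at 0 h. ITGA11 (8.68) and LAMA5 (8.64) stood at the top, with a range over extreme libraries of 4.24 to 14.8 for ITGA11 and 5.58 to 11.6 for LAMA5. At the low end were ITGB7 (0.0786), LAMA2 (0.108), ITGAE (0.234) and LAMB3 (0.33), under the lower quartile of all genes (0.483). These are ratios of shares of each assay, not ribosomes per mRNA.

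Per kilobase of deposited length, which in 96.46% of genes is a multiple of 3 and so is read as coding length, the most abundant of the integrin alpha subunits analysed here in 0 h footprints were ITGAV at 303 ± 17.7, ITGA5 at 241 ± 9.91 and ITGA11 at 227 ± 29.2 CPM per kb. ITGA5 and ITGA11 did not differ beyond their spread. Next came ITGA7 (94.4 ± 5.31), ITGA2 (63.2 ± 4.29), ITGA6 (49.9 ± 2.99), ITGA1 (25.3 ± 0.559) and ITGA4 (15.3 ± 2.06 CPM per kb). At 5 h the order was led by ITGA2 at 783 ± 59.4 and ITGA5 at 732 ± 70.6 CPM per kb, which did not differ beyond their spread, ahead of ITGAV at 459.6 ± 42.6. At 15 h it was ITGA5 (356 ± 14.7), ITGAV (296 ± 6.01), ITGA6 (124 ± 3.77), ITGA11 (86.3 ± 5.62) and ITGA2 (60.7 ± 2.34 CPM per kb).

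As a share of the footprint level per length summed over the 17 integrin alpha subunit genes analysed here, which are not the whole family, ITGA2 made up 6.12 ± 0.246%, 33 ± 1.02%, 11.3 ± 1.34% and 5.93 ± 0.268% at 0, 5, 10 and 15 h. ITGA11's share was 22 ± 2.64%, 7.32 ± 0.212%, 9.66 ± 0.312% and 8.42 ± 0.483%, and that of ITGA6 4.82 ± 0.212%, 4.13 ± 0.323%, 11.2 ± 0.560% and 12.1 ± 0.471%. By their means, ITGA11 was among the 3 leading subunits at 0 h alone and ITGA6 at 15 h alone, ITGA2 (142 ± 17.5 CPM per kb) and ITGA6 (141 ± 8.67 CPM per kb) lying within their spread at 10 h. Shares sum to a fixed total, so a rise in one lowers the rest.

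Among laminin beta chains LAMB3 made up 0.777 ± 0.215%, 10.3 ± 0.374%, 3.16 ± 0.373% and 2.42 ± 0.197% of footprints per length and LAMB1 82.8 ± 0.845%, 72.7 ± 0.695%, 83.5 ± 0.849% and 85.4 ± 0.759%. LAMA4 held 89.5 ± 0.902% of the alpha chains at 10 h, against 82.4 ± 1.25% at 0 h, and LAMA5 9.96 ± 0.936% at 10 h, against 17 ± 1.23% at 0 h.

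**Figure D4:**
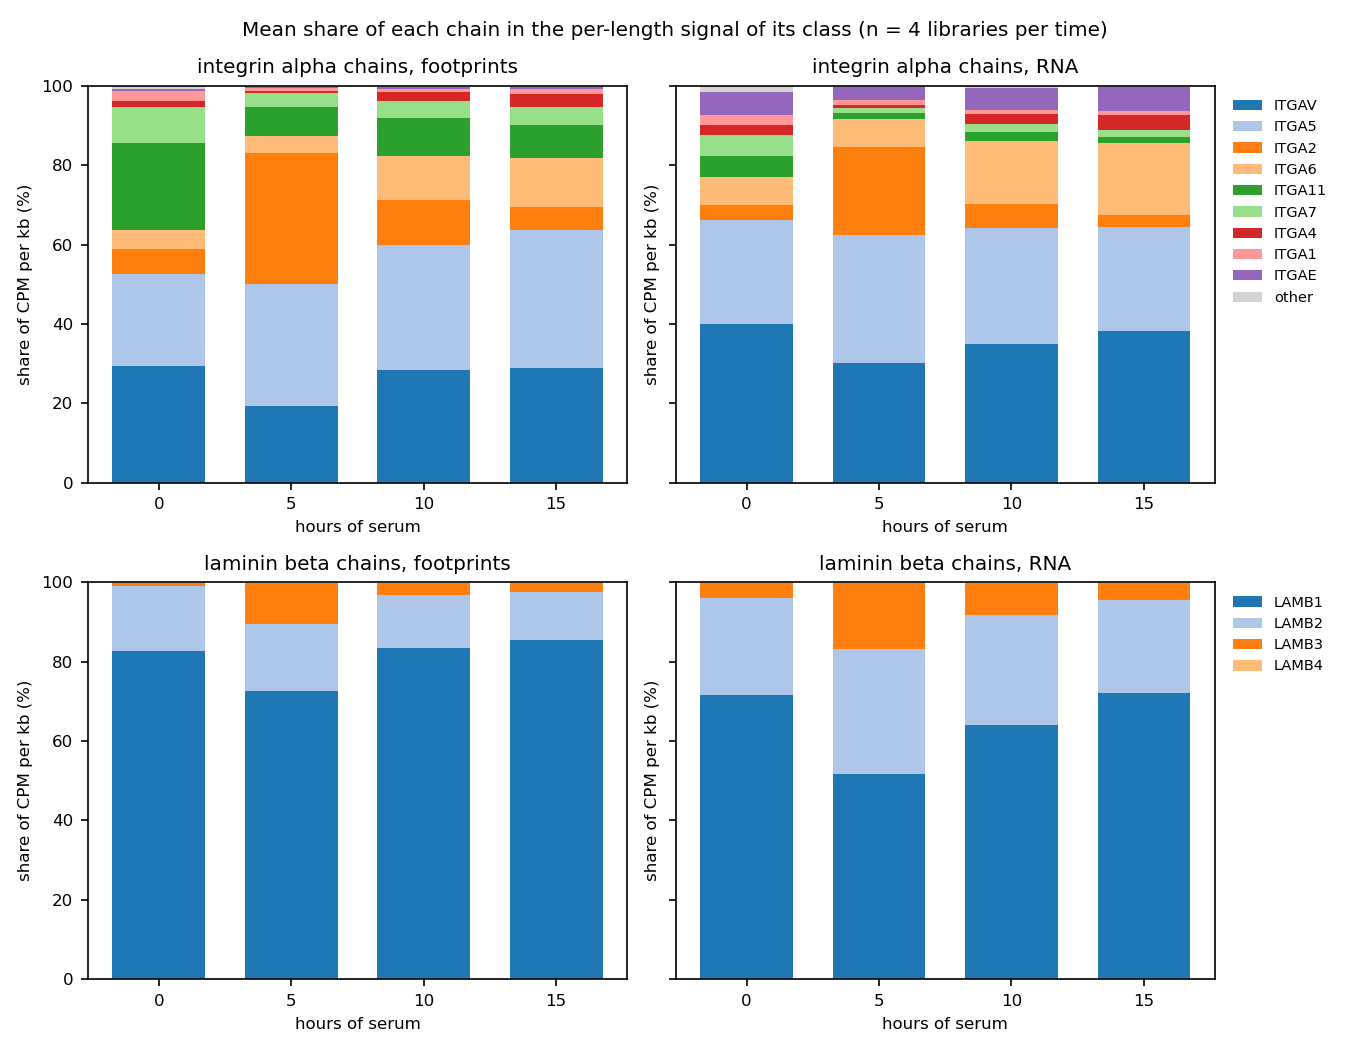
Percent of the summed CPM per kb held by each gene at 0, 5, 10 and 15 h of serum, as stacked means over 4 libraries, within integrin alpha subunits and within laminin beta chains, each for footprints and for RNA; grey is the sum of the alpha subunits not listed. In footprints ITGA2 widens to 33.0% of alpha subunits at 5 h, and LAMB3 to 10.3% of laminin beta chains.

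Between serum times, ITGA2 and ITGA5 came back down while ITGA4, ITGA6 and LAMB1 climbed. From 5 h to 10 h, 3 members rose and 2 fell in RNA (10.1% and 9.56% of all genes) and 6 rose and 12 fell in footprints (31% and 30.7%). ITGA2 fell, with changes of -2.46 ± 0.07 in footprints and -2.4 ± 0.18 in RNA, as did ITGA5, with -0.88 ± 0.06 and -0.68 ± 0.22. LAMB1 rose by 0.82 ± 0.06 and 0.87 ± 0.17, ITGA4 by 0.73 ± 0.07 and 0.89 ± 0.21, and ITGA6 by 0.52 ± 0.08 and 0.70 ± 0.12. The RNA call of ITGA5 ended without RNA 5 h replicate 2 or RNA 10 h replicate 1, 3 or 4 (adjusted p 0.0621 to 0.173, edgeR).

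From 10 h to 15 h, 0 members rose and 2 fell in RNA (3.81% and 2.11% of all genes), ITGA2 (-1.16 ± 0.19) and LAMB3 (-1.14 ± 0.30, adjusted p = 0.0235, edgeR). The LAMB3 call was lost without RNA 10 h replicate 2, 3 or 4 or RNA 15 h replicate 1 or 4 (adjusted p 0.0508 to 0.118). In footprints 2 rose and 15 fell (20.8% and 20.2% of all genes). ITGA4 (0.40 ± 0.07) and ITGA1 (0.19 ± 0.07) were the 2 that rose; the largest falls were ITGA2 (-1.22 ± 0.07) and ITGB4 (-1.12 ± 0.18). The rise of ITGA1 was lost without any of footprint 10 h replicates 2, 3 and 4 and footprint 15 h replicates 1, 3 and 4 (adjusted p 0.059 to 0.132). Some falls depended on single libraries too. That of LAMA5 was lost without footprint 10 h replicate 4 or footprint 15 h replicate 2, 3 or 4. The ITGA5 fall was lost without footprint 10 h replicate 4 or footprint 15 h replicate 2 or 4. ITGB1 lost its call without footprint 10 h replicate 1 or 2 or footprint 15 h replicate 2.

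Genes that act with these families were counted in 4 lists, to be read against the 19.2% of all genes higher and 16.7% lower in RNA at 5 h, and 35.2% and 40.5% in footprints. Focal adhesion adaptors, which tie integrin tails to actin, rose in 10 and fell in 2 of 26 tested in RNA at 5 h (median 0.34), 46.2% called against 35.9% of all genes. In footprints they rose in 22 and fell in 3 of 29 (median 0.63), 86.2% called against 75.7%. FERMT2 (kindlin-2, an integrin activator) rose in RNA by 2.04 ± 0.19 at 5 h and the tensin TNS1 by 1.27 ± 0.28, while its relative TNS2 fell (-2.09 ± 0.40). In footprints ACTN1, the actin cross-linker alpha-actinin, rose by 2.04 ± 0.06 at 5 h and stayed higher at 15 h (1.53 ± 0.06). At 15 h the RNA list stood at 6 higher and 6 lower (median -0.26), beside 25.4% of all genes each way, with FBLIM1 (-1.57 ± 0.28) and TNS3 (-1.54 ± 0.28) among those lower.

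Other basement membrane genes were divided, 2 higher and 5 lower of 11 in RNA at 5 h (median -0.29), 63.6% called against 35.9% of all genes. In footprints 5 were higher and 8 lower of 13 (median -0.49), beside 35.2% and 40.5% of all genes. COL4A1, a collagen IV chain of the sheet, rose by 2.0 ± 0.29 in RNA and 2.04 ± 0.07 in footprints, and was still higher at 15 h (1.53 ± 0.29 and 1.34 ± 0.07). The collagen cross-linking enzyme PXDN fell in footprints at 15 h (-1.34 ± 0.05), as did the linker NID2 (-0.99 ± 0.08) and, at 5 h, the laminin-binding NTN4 (-1.06 ± 0.07). NID1, the paralog of NID2, rose at 15 h (0.84 ± 0.06).

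Integrin ligands had 4 higher and 1 lower of 12 in RNA at 5 h (median 0.05), and their 41.7% called was near the 35.9% of all genes. In footprints 8 were higher and 8 lower of 17 (median -0.14), beside 35.2% and 40.5% of all genes. The matricellular CCN1 rose in footprints by 2.6 ± 0.06 at 5 h and 2.43 ± 0.06 at 15 h, and CCN2 by 1.97 ± 0.07 and 1.9 ± 0.07. TNC, the ligand of ITGA9, rose by 2.26 ± 0.06 in footprints at 5 h. SPP1 (osteopontin), an Arg-Gly-Asp ligand, fell at 15 h (-2.45 ± 0.08). ICAM1, the leukocyte integrin ligand, was higher at 5 h (1.49 ± 0.12) and lower at 15 h (-2.97 ± 0.22).

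Other laminin receptors and hemidesmosome genes had 2 higher and 1 lower of 12 in RNA at 5 h (median -0.16), 25% called against 35.9% of all genes. In footprints 6 were higher and 5 lower (median 0.14), beside 35.2% and 40.5% of all genes. SDC4, a syndecan of focal adhesions, rose by 1.75 ± 0.05 and the tetraspanin CD9 by 1.31 ± 0.07 in footprints at 5 h. Dystroglycan, the laminin receptor coded by DAG1, fell (-1.13 ± 0.05), and BCAM, a receptor for the LAMA5 chain, was lower at 15 h (-1.18 ± 0.07), as LAMA5 was. In RNA at 15 h the list stood at 5 higher and 5 lower (median -0.14), beside 25.4% of all genes each way. In translational efficiency the adaptor PTK2 (focal adhesion kinase) was called higher at 5 h (0.65 ± 0.13), beside 4.13% of all genes higher and 2.34% lower. The hemidesmosome linker DST was called lower at 15 h (-0.69 ± 0.17), beside 7.03% of all genes higher and 3.94% lower. Both are named for being the only calls among the 4 lists, and no result about the lists is drawn from them.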

How the data were processed

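RPE-1 total RNA and ribosome footprints were sequenced after rRNA removal, per the labels. Reads were aligned with STAR 2.5.4a to GRCh38 and counted per gene with featureCounts 1.5.1, per the submitters' processing notes. Strand use in counting and the annotation release are not stated in the labels. The deposited values are raw counts per gene, which the authors had not normalized, and the deposited gene length (an other value, in bases) was used for levels per kb. Columns were matched to samples by name.

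Counts were fitted with edgeR 4.0.16 (R 4.3.3) by the quasi-likelihood test, with TMM scaling, filterByExpr and a time factor over the 16 libraries of an assay, and over all 32 libraries with an assay-by-time interaction for translational efficiency. p-values were adjusted by Benjamini-Hochberg over 8775 genes in RNA, 10959 in footprints and 8736 in efficiency, with a threshold of 0.05. The fits were tested on simulated data. Alternatives were RLE size factors, DESeq2 1.42.0, no filter on low counts, only the groups compared, the replicate number as a block, and leaving out each library.

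Members and lists were chosen with earlier results of these data known. Values in every library are given for members called against 0 h with an absolute log2 change of at least 1 and a mean of at least 10 CPM. Of each list, genes named come from the 4 largest called changes per assay and contrast, except PTK2 and DST, named for their efficiency calls. The promoter search was added after the values were seen. Promoters came from RefSeq (GRCh38.p14), matched by symbol for 25 of the 35 members described; 1 more gene that the symbol rule matches is not reported here. Of the 19023 genes, 18905 were matched to a symbol. The biological replicates' independence beyond the label is not described. The p-values set each change against the spread between these samples, and would be too small if the replicates were not independent.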

Additional observations from a re-analysis of the deposited data

Results flagged for a closer look

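In 15 of 185 groups of 4 libraries with at least 20 counts, 1 library stood apart from the other 3 by its gap relative to the group's range, where chance gives about 1 in 20. In RNA, ITGA10 at 10 h replicate 2 was at 12.4 CPM, against 3.04 to 4.63 in the others, and ITGA5 at 5 h replicate 2 at 1321 CPM, against 866 to 893. LAMC1 at 15 h replicate 2 was at 357 CPM, against 204 to 226. ITGA2 at 15 h replicate 1 was at 75.9 CPM, against 59.2 to 61.9, and ITGA4 at 15 h replicate 4 at 88.8 CPM, against 62 to 65.2. LAMA1 at 5 h replicate 2 was at 43.6 CPM from 44 counts, against 0 to 1.7 in the others.

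In footprints, replicate 2 at 5 h was high for ITGA6 (390.2 CPM, against 275 to 295) and LAMB1 (967 CPM, against 762 to 794). Replicate 3 at 10 h was low for ITGA11 (392 CPM, against 440.2 at most) and LAMB1 (1378 CPM, against 1480 to 1501), while ITGB5 at 10 h replicate 4 was high (412 CPM, against 389 to 390). Replicate 1 at 15 h was high for LAMA2 (20.9 CPM, against 0.75 to 2.96), ITGAM (3.45 CPM, against 0.219 to 0.443) and LAMA5 (78.4 CPM, against 60.9 to 63.5). ITGB7 at 0 h replicate 1 was at 6.2 CPM, against 0.424 to 0.846.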

How the results depend on the processing

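No called change reversed in any alternative run. The labels do not say what a shared replicate number means. The deviations of same-numbered RNA libraries correlated over 0.1 in 17 of 24 pairs (median 0.183), against 14 of 72 differently numbered pairs (median -0.07), so RNA libraries went partly by number. Not every pair did. With 4 libraries to match at each other time, the best match had the library's own number in 25 of 48 RNA comparisons. In footprints it did in 22 of 48. At all 3 other times, 3 of 16 RNA libraries correlated best with their own number. Same-numbered footprints passed 0.1 in 7 of 24 pairs, against 5 of 72 differently numbered pairs. RNA with footprints of the same time passed it in 0 of 16 same-numbered and 7 of 48 differently numbered pairs. With the number as a block, RNA calls went to 13 from 10 at 5 h (adding ITGA7, ITGA10 and ITGA11, lower), to 16 from 13 at 10 h (ITGA7 and ITGB7 lower, LAMB3 higher), to 15 from 11 at 15 h (ITGAE and ITGAV higher, ITGB7 and LAMB3 lower), to 7 from 5 between 5 h and 10 h (ITGAV and LAMA4 lower) and to 5 from 2 between 10 h and 15 h (ITGA11, ITGB5 and LAMA4 lower). In efficiency they went to 3 from 2 at 5 h and 4 from 3 at 10 h (ITGAE lower), and to 5 from 2 at 15 h (ITGAE and ITGAV lower, LAMB1 higher). In footprints the block added ITGB2 at 15 h and ITGA6 between 10 h and 15 h. It lost no call. With only the groups compared, 1 RNA call was left between 10 h and 15 h. Leaving out 1 library gave 8 to 16 calls in RNA at 10 h (main 13), 1 to 2 between 10 h and 15 h, 0 to 4 in efficiency at 10 h (main 3) and 1 to 5 at 15 h (main 2). Without a filter on low counts, calls were lost in RNA for LAMA4 and LAMB2 at 5 h, ITGA1, ITGA10 and ITGA11 at 10 h, LAMB2 at 15 h and ITGA5 between 5 h and 10 h, in footprints for ITGA10, ITGAE and ITGB1 at 5 h, and in efficiency for ITGA1 at 10 h; among members tested either way it added ITGAE and ITGAV in RNA and ITGB2 in footprints at 15 h, and ITGA6 and ITGAX in footprints between 10 h and 15 h. With only the groups compared, the calls of ITGAV in RNA at 10 h, LAMB3 in RNA between 10 h and 15 h, and ITGA10, ITGAE and ITGB1 in footprints at 5 h were lost, and ITGA10 in RNA and ITGAX in footprints at 15 h could not be tested. That setting added ITGA7 and ITGA11 in RNA at 5 h (adjusted p = 0.0453 and 0.0279), ITGB7 in RNA at 15 h (0.0113), LAMA3 in footprints at 15 h, ITGA6 in footprints between 10 h and 15 h, and in efficiency ITGAE at 10 h and ITGAV at 15 h. RLE size factors added LAMA3 in footprints at 15 h. DESeq2 lost footprint calls of ITGA10 at 5 h, ITGB2 between 5 h and 10 h and ITGA1 between 10 h and 15 h, and added ITGA7 and ITGA11 in RNA at 5 h, LAMA2 in footprints between 10 h and 15 h and ITGAV in efficiency at 15 h (adjusted p = 0.0386). The cause was not tested. RNA depth limits members of few counts: ITGB4, LAMA3, ITGB2 and ITGAX could be tested in footprints but not in RNA.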

Other observations

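At 0 h, ITGA5, ITGA7, ITGA11, LAMB2 and LAMC1 each had their highest RNA level in replicate 3, at 559, 128, 153, 431 and 401 CPM. Replicate 2 was the highest RNA library at 5 h for ITGA5 (1321 CPM), ITGA7 (66.3 CPM), ITGA11 (68.3 CPM) and LAMC1 (387 CPM), and not for LAMB2, whose highest was replicate 1 (225 CPM). These genes were picked after their values were seen, and the part of the libraries in the RNA changes was not tested beyond leaving each out.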
